A study of Mus musculus with 40 samples.

Results

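The hippocampus and the prefrontal cortex of wild-type mice were compared across the genome: 10 hippocampal and 10 prefrontal arrays, 20 of the 40 arrays of the series, each hybridized with RNA from 1 tissue sample. All wild-type samples came from untreated male C57BL/6 mice 8 weeks old, littermates of mice that carry the heterozygous Df(16)A deletion. The design text gives both tissues as taken from the same 10 wild-type mice, but the labels do not tie an array to an animal. The 20 arrays of Df(16)A/+ mice, 10 per region, served as a separate set of samples in which the same regional contrast was measured. Each value is the log2 signal of a probe set on an Affymetrix Mouse430_2 array, and each difference is hippocampus minus prefrontal cortex, so that a positive value is higher in the hippocampus.

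The prefrontal cortex is a neocortical area in which pyramidal neurons lie in layers, with callosal and intracortical projection neurons above and subcortical projection neurons below. The hippocampus is a simpler and evolutionarily older cortical sheet in which dentate granule cells contact CA3 pyramidal neurons, which in turn contact CA1. Each of these cell types is known for a characteristic set of transcripts, and so are the tissues that lie against the hippocampus and the frontal cortex in a dissection, such as choroid plexus, thalamus, striatum and meninges. In tissue homogenates such as these, more cells of a type and more RNA per cell cannot be told apart.

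Probe sets with a deposited value above 4 in at least 10 of the 20 arrays were tested, which left 22060 probe sets. For counts of genes, each of 11172 named genes was represented by its probe set of highest mean. Genes whose limma p, adjusted by the Benjamini-Hochberg method, was under 0.05 are termed called, and a gene was termed 2-fold when its difference was also at least 1 on the log2 scale. With 10 arrays per region, 8757 genes (78.4%) were called, 4448 higher in the hippocampus (39.8%) and 4309 lower (38.6%). The 2-fold genes numbered 1576 (14.1%), of which 726 were higher (6.5%) and 850 lower (7.61%). In 4923 genes (44.1%) no hippocampal array overlapped any prefrontal array. Since most genes were called, the 2-fold share of 14.1% is the background against which the gene groups below are read. Counts of list members as higher or lower are of called genes. They are to be read beside the 39.8% and 38.6% of all genes. Of the 183 genes named, 173 were 2-fold genes, with an adjusted p of at most 0.0013 (limma). Most were picked for large differences, so these values describe the choice of genes and are not a result.

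The scale of the regions had to be set before levels could be compared. As deposited, the 95th percentile of an array ranged over 11.62 to 11.72 for prefrontal and 10.94 to 11.05 for hippocampal arrays, while array medians overlapped, so all 20 arrays were brought to 1 distribution by quantile normalization. The median difference over all genes was 0.01 on this scale. It was −0.60 with the values as deposited and −0.54 with each array centred on its median, and the split of calls moved with it, to 1185 genes higher and 9205 lower as deposited and to 1267 and 8861 after centring. All differences are therefore relative to the jointly normalized distribution, and a difference smaller than about 0.6 in favour of the hippocampus depends on that choice. The size of a difference in favour of the prefrontal cortex depends on it as well. Every gene list below with a negative median had a more negative one as deposited. Values under 4 lie in the range of probe sets that failed the filter. Where a region mean was under 4, which held for the prefrontal mean of 220 genes of the 2-fold higher group and the hippocampal mean of 254 of the 2-fold lower group, levels are given without a fold. Such genes passed the filter mainly through the other region and so had to differ, and their calls and the gap between their arrays are descriptions.

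**Figure D1:**
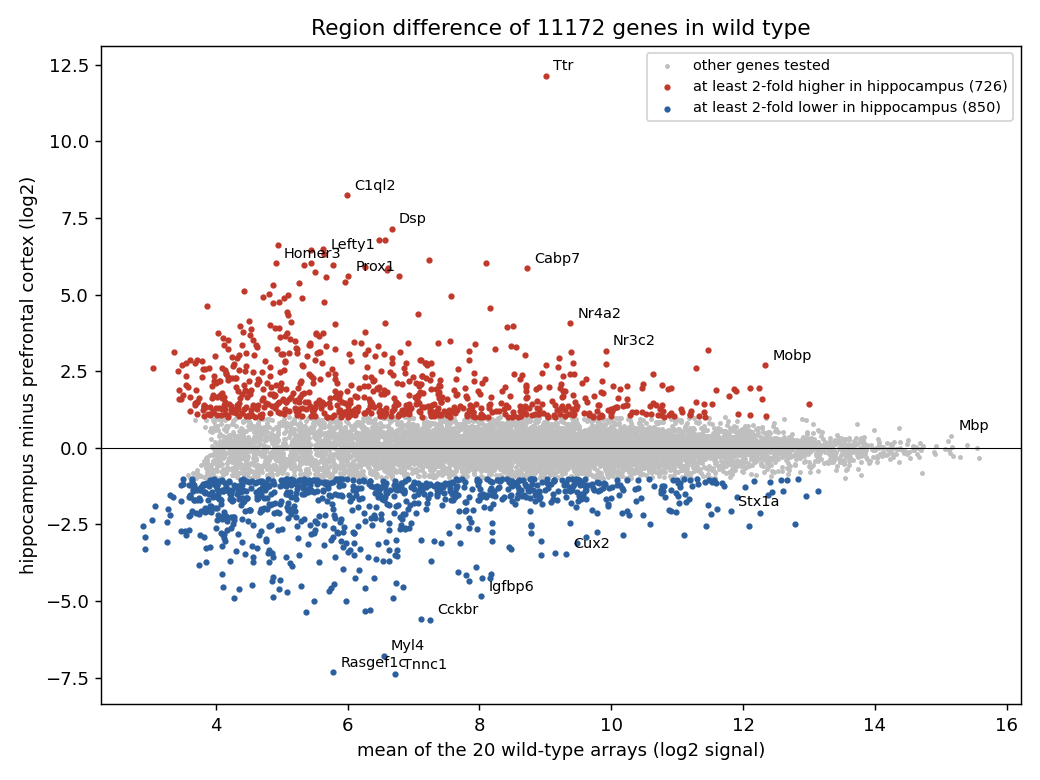
Mean log2 signal over the 20 wild-type arrays against the difference of the regions for 11172 genes, 1 point per gene. Red points are the 726 genes at least 2-fold higher in the hippocampus and blue points the 850 at least 2-fold lower, with Ttr and Tnnc1 as the extremes.

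The genes that set the regions furthest apart are shown first with the DNA upstream of their transcription start. Of the 11172 genes, 9058 matched a promoter in RefSeq (build GRCm38.p6). The 200 bases upstream of the start are printed 5′ to 3′ for the 3 largest rises outside the choroid plexus list and the 3 largest falls that had an entry, the first listed start where a gene has 2 (Rasgef1c), with the E-box core CANNTG in capitals. For the hippocampal genes C1ql2, Dsp and Npy2r the windows lie at chr1:120340382-120340581 (plus strand), chr13:38151094-38151293 (plus strand) and chr3:82548086-82548285 (minus strand).
C1ql2: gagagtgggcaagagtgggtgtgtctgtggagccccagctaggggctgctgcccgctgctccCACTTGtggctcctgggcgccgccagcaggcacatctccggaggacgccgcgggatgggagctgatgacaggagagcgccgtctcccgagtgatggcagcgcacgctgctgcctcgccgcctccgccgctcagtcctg
Dsp: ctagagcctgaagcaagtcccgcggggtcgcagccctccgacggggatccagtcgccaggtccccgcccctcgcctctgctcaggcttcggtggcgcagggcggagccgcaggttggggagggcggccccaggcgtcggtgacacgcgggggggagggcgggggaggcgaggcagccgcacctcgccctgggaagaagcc
Npy2r: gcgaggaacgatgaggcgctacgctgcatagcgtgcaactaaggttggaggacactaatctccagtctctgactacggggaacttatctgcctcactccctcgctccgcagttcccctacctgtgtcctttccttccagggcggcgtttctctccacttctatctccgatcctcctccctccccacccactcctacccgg
For the prefrontal genes Tnnc1, Rasgef1c and Myl4 they lie at chr14:31208112-31208311 (plus strand), chr11:49901635-49901834 (plus strand) and chr11:104550463-104550662 (plus strand).
Tnnc1: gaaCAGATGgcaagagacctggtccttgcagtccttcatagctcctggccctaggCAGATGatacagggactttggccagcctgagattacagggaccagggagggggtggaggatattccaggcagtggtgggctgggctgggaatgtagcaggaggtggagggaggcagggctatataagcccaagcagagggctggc
Rasgef1c: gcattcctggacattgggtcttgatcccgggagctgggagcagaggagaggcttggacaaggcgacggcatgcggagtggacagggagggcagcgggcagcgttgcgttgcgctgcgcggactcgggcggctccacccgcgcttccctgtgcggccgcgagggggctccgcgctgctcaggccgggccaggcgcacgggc
Myl4: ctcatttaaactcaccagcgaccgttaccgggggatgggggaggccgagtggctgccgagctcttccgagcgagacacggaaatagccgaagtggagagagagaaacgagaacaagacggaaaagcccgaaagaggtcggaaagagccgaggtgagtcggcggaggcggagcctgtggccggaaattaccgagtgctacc
The window of C1ql2 held 1 E-box core and that of Tnnc1 held 2, and in the other 4 windows these letters were not found. The observed over expected CpG ratio was 0 in the Tnnc1 window, which holds no CpG, and 0.66 to 1.13 in the other 5. Over 250 bases upstream, on both strands, CANNTG was present in 56.3% of the 9058 matched genes, in 58.9% of 567 genes of the 2-fold higher group and in 57.9% of 646 of the 2-fold lower group. The GC box GGGCGG was present in 60% of all matched genes, 57.7% of the higher group and 52.6% of the lower group, and TATAAA in 6.03%, 8.29% and 7.89%. The median observed over expected CpG ratio was 0.741 over all matched genes, 0.637 in the higher group and 0.612 in the lower group. These shares are descriptions of letters in a window and were not tested.

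Among genes higher in the hippocampus, dentate granule cell transcripts were prominent. C1ql2, a secreted synaptic organizer of mossy fibres, read 9.95, 10.06 and 10.43 in the hippocampus and 1.86, 1.87 and 1.88 in the prefrontal cortex (lowest, median and highest of 10 arrays). No array overlapped, and the prefrontal values all lay far below the filter level. Dsp, which encodes the desmosomal protein desmoplakin, read 9.72, 10.33 and 10.44 in the hippocampus and 3.05, 3.08 and 3.15 in the prefrontal cortex, again without overlap. Prox1, the transcription factor that specifies granule cells, read 8.63, 8.80 and 9.06 in the hippocampus and 3.14, 3.19 and 3.45 in the prefrontal cortex. Every hippocampal array lay far above every prefrontal array. Lct, which encodes lactase, read 9.13, 9.47 and 9.82 in the hippocampus and 2.77, 3.72 and 4.21 in the prefrontal cortex, and Tdo2, a tryptophan-degrading enzyme and granule cell marker named after its values were seen, read 5.61, 5.83 and 6.47 in the hippocampus and 2.15, 2.16 and 2.17 in the prefrontal cortex. Of 21 measured genes in the dentate granule list, 16 were higher and 4 lower, 8 and 1 of them 2-fold, and the list median was 0.54 (-0.14 as deposited). The 5 largest rises all came with a prefrontal mean under 4, while most other members were well above 4 in both regions.

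Transcripts of CA1 pyramidal neurons also held some of the largest rises. Lefty1, a secreted antagonist of Nodal signalling, read 8.66, 8.78 and 8.99 in the hippocampus and 2.47, 2.48 and 2.49 in the prefrontal cortex. Its hippocampal arrays lay close together and none came near the prefrontal ones. Fibcd1, an acetyl-binding membrane receptor, read 10.05, 10.31 and 10.63 in the hippocampus and 3.93, 4.20 and 4.25 in the prefrontal cortex, a difference of 6.13 ± 0.058 (SE). Spink8, a predicted protease inhibitor, read 8.51, 8.94 and 9.10 in the hippocampus and 2.38, 2.40 and 2.41 in the prefrontal cortex, and Gpr161, a ciliary receptor that restrains hedgehog signalling, read 9.35, 9.58 and 9.70 in the hippocampus and 3.83, 3.94 and 4.24 in the prefrontal cortex. Neither gene overlapped between regions. The secreted protease Klk8, named after its values were seen, read 7.36, 7.82 and 8.00 in the hippocampus and 2.80, 2.87 and 2.90 in the prefrontal cortex. Of 16 measured CA1 genes, 11 were higher and 3 lower, 8 and 0 of them 2-fold, with a median of 1.15 (0.49 as deposited). Wfs1, an endoplasmic reticulum protein often used to mark CA1 and also named after its values were seen, was at 10.42, 10.99 and 11.19 in the hippocampus and 10.84, 11.00 and 11.09 in the prefrontal cortex. Its arrays overlapped and it was not called (difference -0.09, adjusted p = 0.27, limma), but it was called lower with the values as deposited (-0.76) and after centring (-0.70).

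The CA3 list held 20 measured genes, 15 higher and 5 lower, 8 and 1 of them 2-fold, with a median of 0.45 (-0.19 as deposited). Homer3, a postsynaptic scaffold that binds group I metabotropic glutamate receptors, read 7.77, 7.94 and 8.09 in the hippocampus and 1.90, 1.91 and 1.92 in the prefrontal cortex. It was at the array floor in every prefrontal array and near 8 in every hippocampal array. Cpne7, a calcium-dependent membrane-binding copine, was 15.6-fold higher, and Rnf182, a ubiquitin ligase, 10.4-fold higher. Coch, which encodes cochlin, stands in the same list and went the other way, at 4.21, 5.04 and 5.85 in the hippocampus and 8.19, 8.45 and 8.73 in the prefrontal cortex. For CA2, 9 genes were measured, 5 higher and 3 lower, 3 and 0 2-fold. The adhesion protein Amigo2 read 5.71, 6.06 and 6.41 in the hippocampus and 2.69, 2.73 and 2.76 in the prefrontal cortex, without overlap. Cacng5, an auxiliary subunit of AMPA receptors, ranged widely among hippocampal arrays, at 4.25, 6.53 and 6.94, and was below 4 in every prefrontal array. Sostdc1, a secreted antagonist of BMP and Wnt signalling listed for CA2, is also a choroid plexus transcript and was lowest in hippocampal replicate 2, as were 7 of the 10 measured genes of the choroid plexus list, itself included. The CA2 list median was 0.60 (-0.06 as deposited), although its summed level was lower in the hippocampus, 13.90 to 14.15 in the hippocampal arrays and 14.35 to 14.51 in the prefrontal arrays. The sum is weighted to abundant genes and does not describe the list as a whole.

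**Figure D2:**
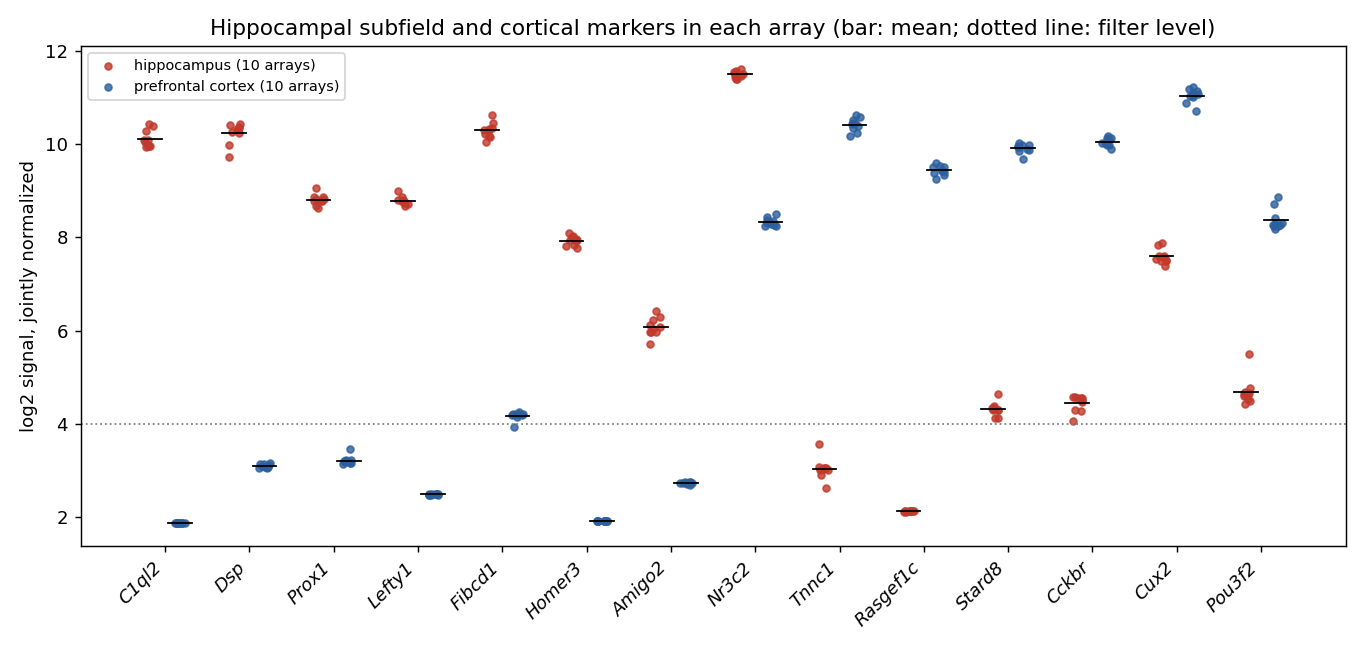
Jointly normalized log2 signal of 14 genes in each of 10 hippocampal (red) and 10 prefrontal (blue) arrays, with the mean as a bar and the filter level of 4 as a dotted line. For each of the 14 genes the 2 sets of arrays are separate, and the spread within a region is small beside the gap between regions.

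Among the cortical layer lists, that of the upper layers held the most genes lower in the hippocampus. Tnnc1, the slow-muscle and cardiac troponin C that is also transcribed in cortical neurons, read 2.63, 3.03 and 3.56 in the hippocampus and 10.18, 10.44 and 10.63 in the prefrontal cortex. Stard8 read 4.13, 4.31 and 4.64 in the hippocampus and 9.69, 9.94 and 10.03 in the prefrontal cortex, which is 48.4-fold lower in the hippocampus. Both genes separated the regions in every array. The homeodomain factors Cux2 and Pou3f2, which act in upper-layer neurons, were 10.9-fold and 12.9-fold lower, Cux2 at 7.38, 7.56 and 7.88 in the hippocampus and 10.72, 11.07 and 11.22 in the prefrontal cortex. The synaptic vesicle-associated membrane protein Lamp5, named after its values were seen, was 5.86-fold lower. Of 20 measured upper-layer genes, 17 were lower in the hippocampus and 14 of them 2-fold, against a background of 7.61%, and the list median was -1.96 (-2.13 as deposited). The exception among 2-fold members was Mdga1, an adhesion protein named after its values were seen, which was higher in the hippocampus at 4.40, 4.44 and 4.49 against 2.93, 2.97 and 3.00.

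Deeper-layer genes did not follow the upper-layer pattern. Of 20 measured layer 5 genes, 10 were higher in the hippocampus and 7 lower, 7 and 2 of them 2-fold, with a median of 0.16 (-0.45 as deposited). Lratd2, a poorly studied membrane-associated protein, was 10.6-fold higher, whereas Deptor, an inhibitor of mTOR, was 6.82-fold lower. Bcl11b, the transcription factor that specifies corticospinal neurons and is also used in dentate and CA1 neurons, was 3.87-fold higher and was named after its values were seen. Of 20 measured layer 6 and subplate genes, 14 were higher and 4 lower, 7 and 3 2-fold, with a median of 0.80 (0.24 as deposited). Nr4a2, an orphan nuclear receptor of subplate and claustrum neurons, read 11.22, 11.38 and 11.76 in the hippocampus and 6.68, 7.50 and 7.77 in the prefrontal cortex, 16.8-fold higher in the hippocampus. Zfpm2, a GATA cofactor, was 11.1-fold higher and the imprinted proteolipid Nnat 9.06-fold higher. Opposed to these, Cplx3, a complexin of subplate neurons, read 1.72, 1.89 and 3.07 in the hippocampus and 4.65, 4.85 and 4.87 in the prefrontal cortex, and Tbr1, the layer 6 T-box factor named after its values were seen, was 3.72-fold lower. Many of the genes used to name deep layers are also known to be transcribed in the hippocampus.

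The remaining genes of the 15 largest differences in each direction come from many families. Higher in the hippocampus were St18, a zinc finger factor, at 9.63, 9.88 and 10.09 against 3.06, 3.07 and 3.22, and Lrrc10b, a leucine-rich repeat protein, at 7.92, 8.24 and 8.51 against 1.62, 1.62 and 1.63. Anln, the actin-binding anillin, which myelin also holds, read 8.03, 8.42 and 8.83 against 2.39, 2.41 and 2.50, and Rasd1, a dexamethasone-inducible Ras-like protein, 7.92, 8.37 and 8.67 against 2.33, 2.35 and 2.37. In all 4 genes the prefrontal arrays lay close together and below the filter level. Lower in the hippocampus were Rasgef1c, a Ras exchange factor, at 2.10, 2.13 and 2.14 in the hippocampus and 9.25, 9.43 and 9.60 in the prefrontal cortex, and Myl4, the atrial essential myosin light chain, at 2.78, 3.15 and 3.72 in the hippocampus and 9.72, 9.96 and 10.10 in the prefrontal cortex. With Tnnc1, Myl4 makes 2 genes of the contractile apparatus among the 3 largest falls. Hkdc1, a hexokinase-like enzyme, read 2.57, 2.69 and 2.76 against 7.83, 8.06 and 8.49, and Exph5, a Rab27 effector, 3.54, 3.72 and 3.76 against 8.84, 8.95 and 9.18. Ramp3, which modifies calcitonin-family receptors, read 2.55, 2.83 and 4.61 against 7.62, 7.99 and 8.26. Chrdl1, a BMP antagonist made by astrocytes, was 30-fold lower. Igfbp6, which binds insulin-like growth factors, was 28.8-fold lower at 5.00, 5.68 and 6.15 in the hippocampus and 10.28, 10.45 and 10.56 in the prefrontal cortex. Trbv1, named by the array annotation for a T-cell receptor segment, read 3.39, 3.47 and 3.67 against 8.36, 8.47 and 8.62. The unnamed transcripts 4932441J04Rik and Gm12371 read 1.83, 1.83 and 1.87 against 6.59, 6.69 and 6.96 and 2.66, 2.69 and 2.90 against 7.18, 7.38 and 7.73. Fcgr2b, an inhibitory immunoglobulin receptor of myeloid cells, read 1.91, 2.44 and 3.16 in the hippocampus and 6.77, 7.28 and 7.76 in the prefrontal cortex, but when probe sets had to exceed 4 in at least 5 arrays of each region, another of its probe sets stood for the gene and differed by 0.017 (adjusted p = 0.91, limma).

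Transcription factors of cortical patterning were divided between the regions. Of 56 measured, 30 were higher in the hippocampus, 12 of them 2-fold, and 22 lower, 8 of them 2-fold, with a median of 0.22 (-0.35 as deposited). Lhx9, a LIM homeodomain factor of the developing thalamus and medial pallium, read 6.34, 6.90 and 7.41 in the hippocampus and 2.98, 3.02 and 3.04 in the prefrontal cortex. Zbtb20, a repressor needed for CA1 identity, and Nr2f2, an orphan receptor, were 6.08-fold and 5.37-fold higher, both named after their values were seen. Lower in the hippocampus was Emx1, a homeodomain factor of dorsal pallial neurons, at 3.27, 3.75 and 3.84 in the hippocampus and 7.18, 7.44 and 7.60 in the prefrontal cortex, with no overlap between regions.

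The largest differences within the Wnt pathway lay on the prefrontal side. Wnt9a read 3.95, 4.21 and 4.67 in the hippocampus and 8.42, 8.53 and 8.75 in the prefrontal cortex, a difference of -4.25 ± 0.075 (SE), and Wnt10a read 2.73, 2.91 and 3.40 in the hippocampus and 6.28, 6.66 and 7.05 in the prefrontal cortex. Wnt4 was 4.99-fold lower, and Rspo1, an R-spondin that amplifies Wnt signals, read 2.48, 2.52 and 2.54 against 4.50, 4.71 and 5.08. None of these 4 overlapped between regions. Of 34 measured Wnt pathway genes, 17 were lower and 10 higher, 6 and 1 of them 2-fold, with a median of -0.10. In the retinoid pathway, 7 of 11 genes were lower and 4 higher, 4 and 0 2-fold, with a median of -0.27. The nuclear receptors Rarb and Rxrg read 2.75, 2.97 and 3.17 against 5.24, 5.31 and 5.79 and 2.71, 2.86 and 2.99 against 4.79, 4.96 and 5.15. Rbp4, the plasma retinol carrier, was 4.51-fold lower and the retinoic acid-synthesizing enzyme Aldh1a2 2.59-fold lower. Rarb and Rxrg are also striatal genes and Aldh1a2 a meningeal one, and the summed markers of both tissues tended to be higher in the prefrontal arrays, as given with those tissues. Their part in these differences was not tested.

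The largest differences among AMPA and kainate receptor genes were in auxiliary proteins. Shisa6, which holds AMPA receptors at synapses, read 10.78, 11.12 and 11.40 in the hippocampus and 4.78, 5.11 and 5.28 in the prefrontal cortex, a 65-fold excess in the hippocampus without overlap. The pore-forming subunit Gria1, named after its values were seen, was 3.87-fold higher at 13.13, 13.23 and 13.32 in the hippocampus and 11.19, 11.29 and 11.34 in the prefrontal cortex. Within the transmembrane AMPA receptor regulators, Cacng5 was higher, as above, and its paralog Cacng3 was 4.19-fold lower. The sorting receptor Sorcs1 read 2.59, 2.69 and 2.89 against 6.28, 6.42 and 6.67, and Gsg1l, which slows AMPA receptor recovery, was 6.83-fold lower. Of 26 measured genes of the AMPA and kainate group, 11 were higher and 12 lower, 5 each way 2-fold, and the median was 0.03 (-0.61 as deposited). No gene of the NMDA and delta receptor group reached 2-fold: of 6 measured, 2 were higher and 2 lower, with Grin2a at 4.14, 4.92 and 5.14 against 3.41, 4.07 and 4.26 and Grin2b at -0.56 ± 0.084 (SE), both with overlapping arrays. Within fluidics station 3 the call of Grin2a was lost (adjusted p = 0.076, limma). Of 6 metabotropic receptors, 4 were lower and 1 higher, with a median of -1.04. Grm8 read 2.66, 3.09 and 3.20 against 5.10, 5.50 and 5.88, Grm3 was 3.46-fold lower and Grm4 2.68-fold lower, without overlap in any of them. The vesicular glutamate transporter Slc17a7, named after its values were seen, differed by -0.37 ± 0.052 (SE) with overlapping arrays and was not called in the fit of 40 arrays with run (-0.13, adjusted p = 0.14, limma) or within run 3 (-0.20, adjusted p = 0.17), whereas Slc17a6, its subcortical paralog chosen in the same way, was 2.88-fold higher.

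GABA-A receptor subunits differed in both directions. Gabra5, the subunit of extrasynaptic receptors for which the hippocampus is known, read 12.62, 12.84 and 12.96 in the hippocampus and 10.75, 10.92 and 11.00 in the prefrontal cortex, 3.78-fold higher. Gabrd, the tonic-current subunit, was 3.51-fold lower and Gabra3 3.29-fold lower, each without overlap. Of 10 measured subunits, 3 were higher and 7 lower, 1 and 3 2-fold, with a median of -0.47. Most called serotonin receptors were higher in the hippocampus. Htr4, a cyclic AMP-coupled receptor, read 8.41, 8.69 and 8.95 in the hippocampus and 3.20, 3.27 and 3.29 in the prefrontal cortex, and Htr5b read 5.48, 5.95 and 6.39 in the hippocampus and 2.31, 2.33 and 2.36 in the prefrontal cortex. Htr2c, which choroid plexus transcribes strongly, was 2.82-fold higher, and Htr1f was lower at 2.91, 2.96 and 2.98 against 4.75, 4.85 and 4.99. Of 7 measured, 4 were higher and 2 lower, 4 and 1 2-fold, and the median of 1.20 stayed positive as deposited, at 0.62. Of 9 measured dopamine, noradrenaline, histamine and acetylcholine receptors, 5 were higher and 4 lower. The histamine receptors Hrh1 and Hrh3 were 6.32-fold and 2.83-fold lower, the nicotinic subunit Chrna4 2.21-fold lower and Chrna5 higher at 3.95, 4.48 and 4.83 against 2.92, 2.97 and 2.99. The dopamine receptor Drd1 was 3.1-fold lower at 4.19, 4.76 and 5.43 in the hippocampus and 6.26, 6.42 and 6.64 in the prefrontal cortex, and Drd2 stayed below 4 in all 20 arrays and was not tested.

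Neuropeptides and their receptors held several wide gaps. Npy2r, a presynaptic receptor for neuropeptide Y, read 9.69, 9.94 and 10.38 in the hippocampus and 3.15, 3.18 and 3.25 in the prefrontal cortex. Its ligand gene Npy, named after its values were seen, went the other way and was 2.95-fold lower. Cckbr, the main brain receptor for cholecystokinin, read 4.07, 4.53 and 4.57 in the hippocampus and 9.91, 10.03 and 10.17 in the prefrontal cortex, which is 48.8-fold lower in the hippocampus. Crhr1, the type 1 receptor for corticotropin-releasing hormone, was 8.7-fold lower and its ligand Crh 9.88-fold lower, at 6.46, 6.86 and 7.10 in the hippocampus and 9.88, 10.10 and 10.48 in the prefrontal cortex. Ligand and receptor were thus on the same side for this pair. Adcyap1, which encodes the peptide PACAP, read 3.15, 3.60 and 4.24 in the hippocampus and 8.61, 8.90 and 9.20 in the prefrontal cortex. Nts, the neurotensin precursor, was higher at 7.50, 8.00 and 8.24 in the hippocampus and 2.56, 2.58 and 2.59 in the prefrontal cortex, and so was Grp, the gastrin-releasing peptide, 10-fold. Trhr, the receptor for thyrotropin-releasing hormone, read 6.16, 6.55 and 7.00 against 3.18, 3.30 and 3.48. Of 21 measured neuropeptide genes, 8 were higher and 12 lower, 2 and 6 2-fold, with a median of -0.44. Of 16 receptors, 10 were higher and 5 lower, 5 and 3 2-fold, with a median of 0.29 (-0.33 as deposited).

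Interneuron markers were more often lower in the hippocampus: 16 of 25 were lower and 6 higher, 6 and 3 2-fold. The list median was -0.39 (-0.86 as deposited). Vip, the peptide of a class of interneurons that target other interneurons and a gene named after its values were seen, was 5.61-fold lower at 9.14, 9.34 and 9.51 in the hippocampus and 11.69, 11.82 and 12.06 in the prefrontal cortex. Tac2, which encodes neurokinin B, read 2.52, 2.70 and 5.56 in the hippocampus and 5.98, 6.20 and 6.60 in the prefrontal cortex, and even its highest hippocampal array lay below every prefrontal one. Calb2, the calcium-binding protein calretinin, was 5.9-fold higher at 8.67, 8.97 and 9.16 in the hippocampus and 6.31, 6.39 and 6.46 in the prefrontal cortex. It marks interneurons, mossy cells and thalamic neurons alike. Among 16 genes of immature neurons and proliferation, 8 were higher and 6 lower, with Cd24a, a glycoprotein of young neurons and ependyma, 7.29-fold higher and Dcx, the microtubule protein doublecortin of migrating neurons, 2.91-fold lower.

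Potassium channel genes were mostly lower in the hippocampus: 38 of 60 measured were lower, 19 of them 2-fold, and 14 higher, 2 of them 2-fold. The list median was -0.52 (-1.18 as deposited). Kcnj12, an inward rectifier, read 2.59, 2.66 and 2.74 in the hippocampus and 7.04, 7.26 and 7.55 in the prefrontal cortex. Kcnh5, an ether-a-go-go channel, and Kcnk6, a weakly rectifying leak channel, read 3.85, 4.01 and 4.15 against 7.11, 7.65 and 7.81 and 2.27, 3.28 and 3.85 against 5.89, 6.20 and 6.80. The largest rise, Kcnj13, is a choroid plexus channel and spread from 5.32 to 11.06 over the hippocampal arrays, and within fluidics station 1 its call was lost (adjusted p = 0.057, limma). Of 23 sodium and calcium channel genes, 15 were lower and 8 higher, 3 and 2 2-fold, with a median of -0.28. The auxiliary sodium channel subunits were opposed, Scn4b being 8.55-fold lower and Scn3b 2.81-fold higher. Scn7a, a sodium-level sensor, was 3.35-fold lower, and the T-type calcium channel Cacna1h 3.15-fold higher.

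Close relatives among the calcium sensors lay on opposite sides. Cabp7, a calmodulin-like protein of the Golgi, read 11.49, 11.66 and 11.81 in the hippocampus and 5.61, 5.70 and 6.16 in the prefrontal cortex, 57.9-fold higher, and Cabp1 was 3.33-fold lower. Among copines, Cpne7 was higher as above, Cpne2 read 6.55, 6.73 and 7.15 against 2.85, 3.16 and 3.42, and Cpne9 was 9.42-fold lower. Of 42 measured genes, 17 were higher and 23 lower, 7 and 9 2-fold. The vesicle priming proteins Doc2b and Doc2a were opposed, Doc2b at 9.27, 9.54 and 9.88 in the hippocampus and 3.48, 3.71 and 3.77 in the prefrontal cortex and Doc2a 5.43-fold lower. Stx1a, a plasma membrane SNARE, was 4.17-fold lower. Of 35 vesicle genes, 23 were lower and 7 higher, 5 and 2 2-fold, with a median of -0.27.

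In intracellular signalling, Rgs6, which speeds the shut-off of G-protein signals, read 2.59, 2.63 and 2.64 against 5.90, 5.99 and 6.20. Its relatives Rgs4 and Rgs20 were 4.34-fold and 3.2-fold lower. Of 17 members, 8 were lower and 5 higher, 4 and 0 of them 2-fold, against 38.6% lower and 39.8% higher among all genes. Among phosphodiesterases, Pde8a was 8.34-fold higher and Pde7b 3.15-fold lower, both enzymes specific for cyclic AMP. Adcy7, an adenylate cyclase of glia and blood cells, read 3.00, 3.53 and 4.47 against 5.80, 6.27 and 6.93. Of 27 genes of cyclic nucleotide turnover, 15 were lower and 7 higher, 3 and 2 2-fold, with a median of -0.19. Of 14 protein kinase C and diacylglycerol kinase genes, 7 were higher and 7 lower, and Prkcd, a thalamic isoform, was the only 2-fold one.

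The difference between regions was large for 1 of the 2 corticosteroid receptors and small for the other. Nr3c2, the mineralocorticoid receptor for which the hippocampus is known, read 11.40, 11.51 and 11.62 in the hippocampus and 8.24, 8.30 and 8.50 in the prefrontal cortex, 9-fold higher with an adjusted p of 1.4e-25 (limma). Nr3c1, the glucocorticoid receptor, differed little, at -0.30 ± 0.047 (SE), with overlapping arrays. Hsd11b1, which regenerates active glucocorticoid, was 3.11-fold higher, and Crym, a thyroid hormone-binding protein, 3.59-fold higher. Of 13 genes of this group, 7 were higher and 5 lower, 4 and 3 2-fold, with a median of 0.41 (-0.18 as deposited), and the list also holds the thyroid hormone carrier Ttr. Of 13 glucocorticoid-responsive genes, 8 were higher and 4 lower, with a median of 0.42 (-0.22 as deposited). Fkbp5, a chaperone of the receptor, was 3.59-fold higher at 10.04, 10.21 and 10.34 in the hippocampus and 7.90, 8.29 and 8.70 in the prefrontal cortex. Cdkn1a, a cell-cycle inhibitor, was 8.36-fold lower at 4.99, 5.03 and 5.18 in the hippocampus and 7.85, 8.08 and 8.46 in the prefrontal cortex. Within hybridization run 3, with genotype as a term, the contrast rests on 8 hippocampal arrays and 1 prefrontal array of Df(16)A/+, and there the Fkbp5 difference was 0.40 with an adjusted p of 0.29 (limma). The Nr3c1 difference was -0.084 there (adjusted p = 0.59, limma), and the median of the glucocorticoid-responsive list was 0.055.

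Activity-regulated genes were split by member. Of 27 measured, 14 were lower in the hippocampus and 11 higher, 8 and 5 2-fold, with a median of -0.39. Egr2, an immediate early zinc finger factor, read 5.27, 5.39 and 6.60 in the hippocampus and 7.49, 8.40 and 8.72 in the prefrontal cortex, 6.23-fold lower. Its lowest prefrontal array lay above its highest hippocampal array. The nuclear receptors Nr4a2 and Nr4a3 and the phosphatase Dusp5 were higher, Nr4a3 6.51-fold and Dusp5 8.67-fold. Within run 3, where 1 prefrontal array carries the contrast, the list median was 0.05.

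Wiring genes held many 2-fold members in both directions. Of 22 cadherins and protocadherins, 10 were 2-fold lower and 4 2-fold higher, with a median of -0.04. Cdh7 and Cdh22 were 6.44-fold and 5.78-fold lower and Cdh1 read 3.18, 3.24 and 3.33 against 4.96, 5.49 and 6.66, whereas Pcdh20 was 8.68-fold higher at 10.81, 10.97 and 11.08 in the hippocampus and 7.65, 7.86 and 7.99 in the prefrontal cortex. Of 15 Eph receptors and ephrins, 7 were higher and 7 lower, 4 and 3 2-fold. The ligand Efna5 read 4.32, 4.53 and 4.77 in the hippocampus and 8.87, 9.11 and 9.27 in the prefrontal cortex, 23.3-fold lower, and the receptor Ephb3 was 4.86-fold lower. Efnb3, a transmembrane ligand, and the receptor Epha6 were 8.16-fold and 6.76-fold higher.

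The class 3 semaphorins Sema3e and Sema3a, secreted guidance cues, lay on opposite sides. Sema3e read 10.10, 10.22 and 10.29 in the hippocampus and 6.73, 6.93 and 7.04 in the prefrontal cortex, 9.84-fold higher, and Sema3a read 4.43, 4.78 and 5.26 in the hippocampus and 8.37, 8.46 and 8.60 in the prefrontal cortex, 12.9-fold lower. Plxnd1, a receptor for Sema3e, was 6.67-fold lower. The co-receptors Nrp1 and Nrp2, named after their values were seen, were 5.33-fold and 3.33-fold higher. Of 32 genes of this family, 13 were higher and 18 lower, 6 and 5 2-fold. The repellent Slit1 was 6.77-fold higher and Robo3, a divergent member of the Slit receptor family, 5.99-fold lower. In their list of 33, 15 were higher and 16 lower, 8 and 7 2-fold. Among synaptic adhesion proteins, Cbln2, a secreted neurexin ligand, read 5.55, 5.90 and 6.44 in the hippocampus and 9.96, 10.13 and 10.33 in the prefrontal cortex, 19-fold lower. Cntn4, a contactin, was 5.89-fold lower and Tenm3, a teneurin of hippocampal circuit matching, 3.43-fold higher. Of 44 genes of that list, 14 were higher and 26 lower, 4 and 7 2-fold, with a median of -0.27. In the extracellular matrix, Thbs4, a thrombospondin, read 4.55, 5.98 and 6.38 against 2.43, 2.46 and 2.47, and Hapln2, a link protein of nodes of Ranvier, 6.39, 6.92 and 7.19 against 3.86, 3.89 and 3.92. Of 53 matrix genes, 17 were higher and 28 lower, 10 each way 2-fold.

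**Figure D3:**
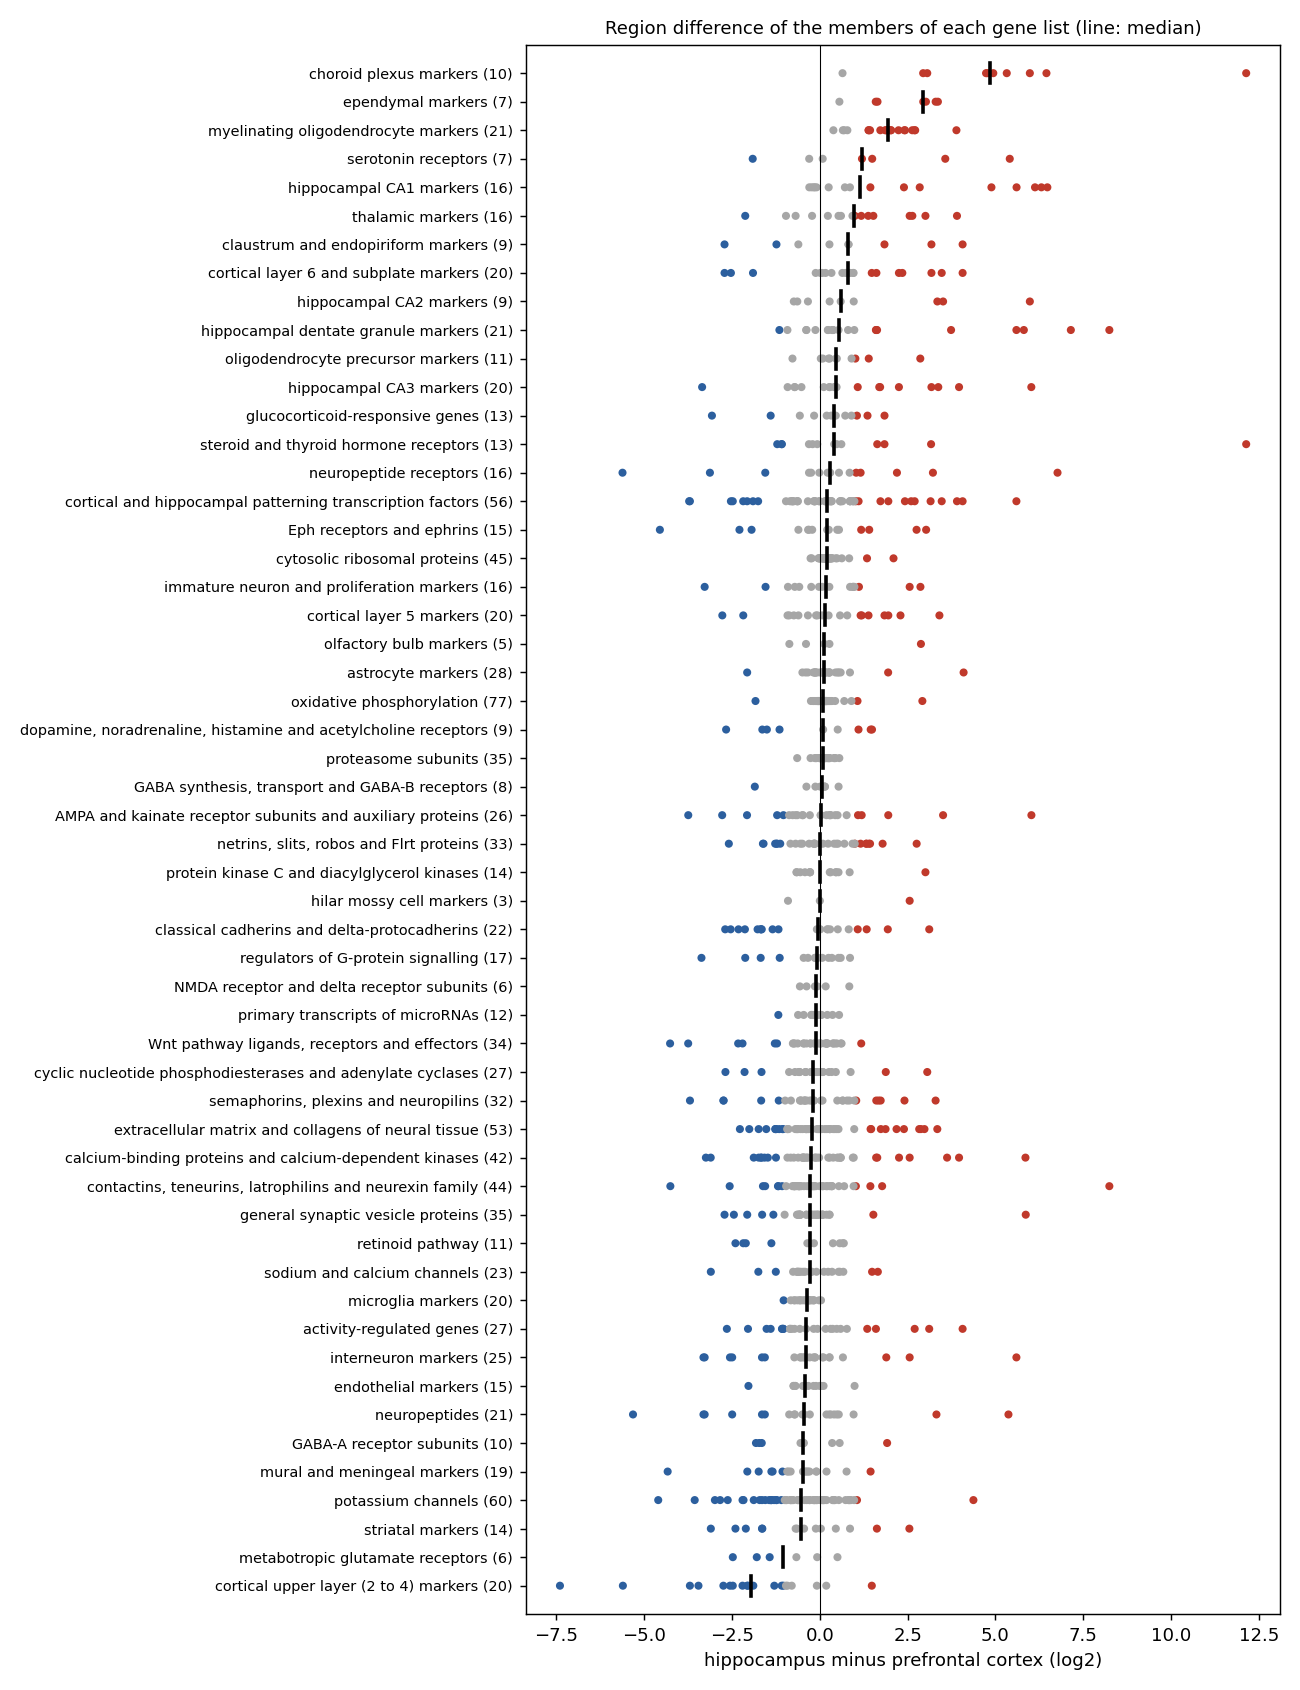
Region difference (log2) of every measured member of each gene list with at least 3 measured genes, 1 point per gene, with the list median as a black line and the number of genes in brackets. Red and blue mark differences of at least 1 in either direction. The choroid plexus, ependymal and myelin lists lie furthest to the right, with medians of 4.86, 2.95 and 1.95, and the upper-layer list furthest to the left, with -1.96.

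Of the myelin genes, 21 of 21 were higher in the hippocampus and 17 of them 2-fold, with a median of 1.95 (1.28 as deposited and 1.34 after centring). Mobp, a structural myelin protein, read 13.28, 13.72 and 13.94 in the hippocampus and 10.75, 10.94 and 11.28 in the prefrontal cortex, 6.49-fold higher. Myrf, the factor that starts myelination, was 6.58-fold higher, the cytoskeletal protein Ermn 6.21-fold higher and the gap junction protein Gjb1 higher at 5.99, 6.53 and 6.75 against 2.50, 2.56 and 2.93. Mbp, the myelin basic protein, was at 15.24, 15.36 and 15.39 against 14.85, 14.98 and 15.07 on its brightest probe set, near the top of the scale, and its difference of 0.39 turned to -0.22 as deposited and to -0.16 after centring. The summed level of the myelin list was 16.75 to 17.03 in the hippocampal arrays and 15.83 to 16.05 in the prefrontal arrays (log2), without overlap. Of 11 precursor genes, 7 were higher and 1 lower, with a median of 0.46 (-0.14 as deposited), among them Enpp6, an enzyme of newly formed oligodendrocytes, 7.28-fold and the lineage factor Olig2 2.02-fold higher. Within run 3 the Olig2 difference was 0.57 and was not called (adjusted p = 0.19, limma).

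Astrocyte genes were mixed: 13 of 28 were higher and 8 lower, with 2 and 1 2-fold and a median of 0.12 (-0.51 as deposited). Gfap, the intermediate filament of astrocytes, read 11.74, 11.88 and 12.07 in the hippocampus and 9.60, 9.88 and 10.31 in the prefrontal cortex, 3.86-fold higher. Agt, angiotensinogen, which astrocytes of subcortical regions transcribe most, read 6.43, 7.19 and 7.72 in the hippocampus and 3.08, 3.09 and 3.13 in the prefrontal cortex. Microglial genes were lower in the hippocampus in 16 of 20 and higher in none, and 1 was 2-fold on the jointly normalized scale. The list median was -0.37 (-1.01 as deposited). Siglech, a sialic acid-binding receptor, was 2.04-fold lower with overlapping arrays, and Tmem119, a microglial surface marker, 1.65-fold lower. The Siglech difference of -1.02 became -1.62 within fluidics station 1, -0.63 within station 2 and -0.99 on hybridization day 1, and missed the threshold in each (adjusted p = 0.066, 0.14 and 0.075, limma). The Tmem119 difference of -0.73 became -0.33 in the fit of 40 arrays with run (adjusted p = 0.13) and -0.67 within run 3 (0.096). Endothelial genes were lower in 11 of 15 and higher in 1, the tight junction gene Ocln, with a median of -0.42 (-1.01 as deposited). Emcn, an endothelial sialomucin, read 3.27, 3.59 and 4.25 against 5.35, 5.61 and 6.40, and the adhesion protein Esam was 1.68-fold lower.

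Markers of tissues that border the dissections moved with region. Ttr, the transthyretin of choroid plexus, read 12.50, 15.35 and 15.52 in the hippocampus and 2.66, 2.69 and 4.00 in the prefrontal cortex, the largest difference of all genes, and hippocampal replicate 2 stood below the other 9 arrays, which lay above 15. Kl, which encodes klotho, read 5.52, 9.09 and 10.07 in the hippocampus and 2.20, 2.22 and 2.25 in the prefrontal cortex, and Calml4, a calmodulin-like protein, 4.06, 7.93 and 9.59 in the hippocampus and 2.20, 2.21 and 2.23 in the prefrontal cortex. All 10 measured choroid plexus genes were higher and 9 of them 2-fold, and the summed level of the list was 12.98 to 15.75 in the hippocampal arrays and 9.18 to 9.59 in the prefrontal arrays (log2). This sum is weighted to abundant genes, and Ttr alone reached 15.52 in the hippocampus. The list had 17 genes on the array, of which these 10 passed the filter. In 8 of the 10 genes the regions did not overlap, against 44.1% of all genes. In 6 of the 10 the prefrontal mean was under 4, so that they passed the filter mainly through the hippocampus and had to be higher. Replicate 2 held the lowest summed level of the hippocampal arrays. Without replicate 2, Ttr and Kl kept their direction and their calls. Of 717 genes outside this list that were 2-fold higher, 16 (2.23%) correlated above 0.9 with the mean of the list over the 10 hippocampal arrays, against 0.385% of all 11162 genes outside it. They included Kcnj13 and Htr2c, and 14 of the 16 remained above 0.9 without replicate 2. Prox1, C1ql2 and Lefty1 were not among them. All 10 arrays share the tissue and the scaling, and the correlation is given as a description. The 717 genes were themselves picked for being higher in the hippocampus, and the difference between the shares was not tested. Col8a1, a collagen of vessel walls and choroid plexus, and Cox8b, a muscle-type cytochrome oxidase subunit, also spread widely, at 4.44, 6.26 and 7.72 and 4.82, 5.84 and 7.40. Col8a1 was higher by 1.97 within fluidics station 1 (adjusted p = 0.071, limma) and by 2.17 within run 3 (0.061), without a call.

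**Figure D4:**
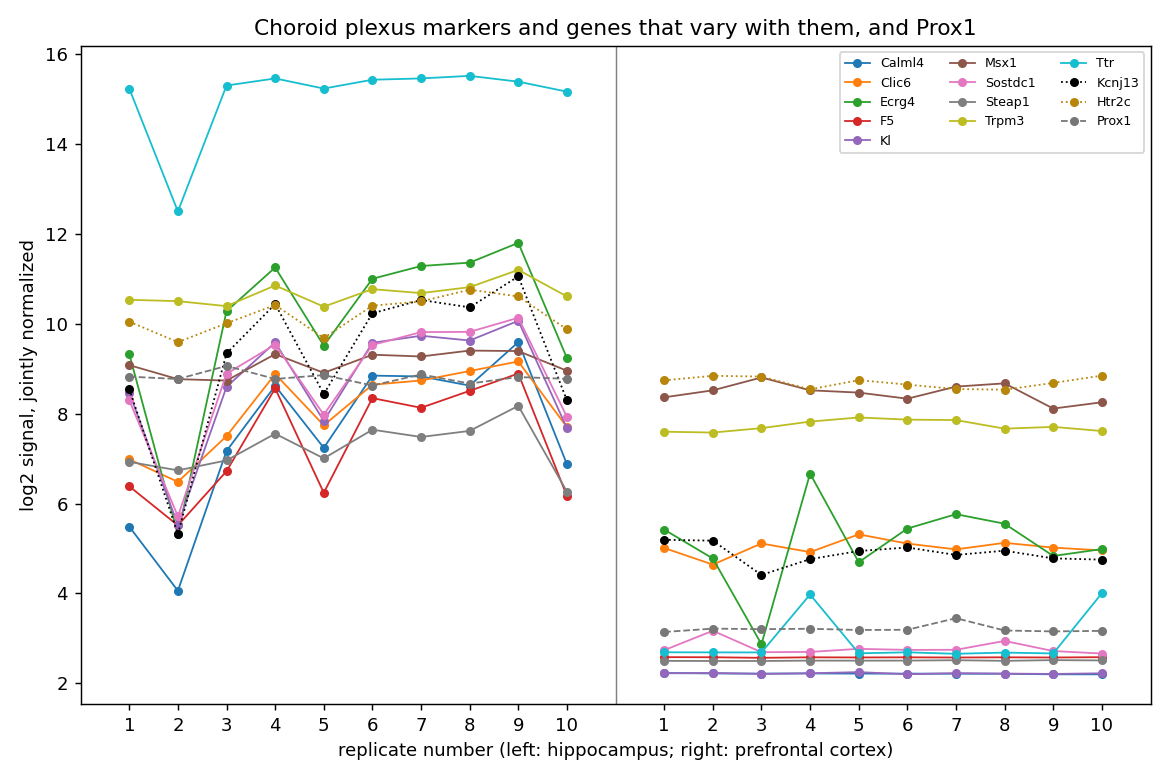
Jointly normalized log2 signal of all 10 measured choroid plexus list genes (solid), of Kcnj13 and Htr2c, which vary with them (dotted), and of Prox1 (dashed), in each hippocampal array on the left and each prefrontal array on the right, by replicate number. Of the 10 list genes, 7 have their lowest hippocampal value in replicate 2, where Prox1 stays at the level of the other arrays, and Msx1, Steap1 and Trpm3 have it in replicates 3, 10 and 5.

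All 7 measured ependymal genes, of 14 on the array, were higher in the hippocampus and 6 of them 2-fold, against 39.8% and 6.5% of all genes. Foxj1, Cfap126, Ccdc153 and Rsph1 had prefrontal means under 4. They passed the filter mainly through the hippocampus and so had to be higher, and the counts are descriptions. The summed levels were 9.16 to 10.20 in the hippocampal arrays and 7.86 to 8.65 in the prefrontal arrays. Foxj1, the factor for motile cilia, read 5.56, 5.83 and 6.21 in the hippocampus and 2.83, 2.83 and 2.88 in the prefrontal cortex, and the ciliated cell genes Cfap126, Ccdc153 and Rsph1 read 6.78, 7.07 and 7.43 against 3.68, 3.75 and 3.78, 4.00, 6.49 and 7.08 against 2.93, 2.96 and 3.08, and 5.43, 5.63 and 6.40 against 2.76, 2.78 and 2.80. Of 16 thalamic markers, 12 were higher and 4 lower, with a median of 0.97 (0.32 as deposited). The summed level of the list was lower in the hippocampus, 13.25 to 13.68 in the hippocampal arrays and 13.85 to 14.03 in the prefrontal arrays. That sum is weighted to abundant genes and includes Rgs4, which averaged 11.20 in the hippocampus and 13.32 in the prefrontal cortex. A sum without Rgs4 was not made, so the lower sum does not describe the list as a whole. Prkcd read 6.64, 8.02 and 9.05 in the hippocampus and 4.76, 4.87 and 5.19 in the prefrontal cortex. The Wnt effector Tcf7l2 read 5.86, 6.56 and 7.79 in the hippocampus and 5.09, 5.40 and 5.53 in the prefrontal cortex, with its highest value in hippocampal replicate 10, which also had the highest summed level of the list among hippocampal arrays. Within run 3 its difference was 0.94 and was not called (adjusted p = 0.054, limma). Plekhg1 was 6.22-fold higher.

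On the prefrontal side, 9 of 14 striatal genes were lower in the hippocampus and 4 higher, 5 and 2 of them 2-fold. The list median was -0.54 (-1.18 as deposited). Summed levels were 12.97 to 13.12 in the hippocampal arrays and 13.13 to 13.27 in the prefrontal arrays. Scn4b (8.55-fold lower), Drd1 (3.1-fold lower), Rarb and Rxrg, given above with other groups, were among the 2-fold lower members of this list. Ppp1r1b, the DARPP-32 of striatal projection neurons, was 1.61-fold lower at 7.39, 7.97 and 8.44 in the hippocampus and 8.53, 8.62 and 8.85 in the prefrontal cortex. The defining marker Drd2 was below 4 in every array and Adora2a had no probe set assigned to it alone. Syndig1l, a striatal AMPA receptor-related protein, went the other way, at 5.14, 5.39 and 5.76 against 2.80, 2.87 and 2.90. Of 19 mural and meningeal genes, 13 were lower and 2 higher, with summed levels of 12.31 to 12.78 in the hippocampal arrays and 12.58 to 13.05 in the prefrontal arrays. Slc47a1, an organic cation extruder of meninges, read 2.54, 2.73 and 3.50 in the hippocampus and 5.98, 7.10 and 8.18 in the prefrontal cortex, Slc22a6, an anion transporter, 3.20, 3.40 and 3.80 against 5.41, 5.49 and 5.53, and Col1a1 was 3.33-fold lower. Of 5 olfactory bulb genes measured, 3 were higher and 2 lower. Cdhr1, a mitral cell cadherin, read 4.80, 5.04 and 5.25 against 2.13, 2.15 and 2.28, and Eomes, the other defining bulb marker, was below 4 in all arrays. The blood list kept 1 measured gene, the globin Hbb-b2, which was not called. The part of any of these tissues in the differences of other genes was not tested, and the choroid plexus correlation above is a description only.

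Housekeeping families gave the size of difference found in genes not chosen for region. Of 45 cytosolic ribosomal protein genes, 35 were higher and 2 lower, but 2 were 2-fold, Rps4l and Rps6, and the median of 0.20 became -0.45 as deposited. Of 77 oxidative phosphorylation genes, 52 were higher and 8 lower, with a median of 0.11 (-0.56 as deposited). The muscle-type subunit Cox6a2 was lower at 3.00, 4.02 and 4.77 in the hippocampus and 5.60, 5.65 and 6.04 in the prefrontal cortex. Of 35 proteasome genes, 20 were higher and none was 2-fold, with a median of 0.10 (-0.57 as deposited). Rps4l was 4.29-fold higher and Rps6 2.54-fold higher. Among 12 primary transcripts of microRNAs, 1 was 2-fold, Mir124-2hg, a precursor of the neuronal miR-124, 2.26-fold lower at 8.54, 8.88 and 9.19 in the hippocampus and 9.79, 10.02 and 10.26 in the prefrontal cortex.

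The same contrast was measured in Df(16)A/+ mice, whose heterozygous deletion on chromosome 16 removes 1 copy of the genes that correspond to the human 22q11.2 deletion, on 10 hippocampal and 10 prefrontal arrays that the wild-type fit did not use. There, 8155 genes were called (73%) and 1522 were 2-fold (13.6%). Of the 1576 genes 2-fold in wild type, 1574 were called in the same direction in Df(16)A/+, 1404 of them 2-fold, and none in the opposite direction. Over all 11172 genes the 2 sets of differences correlated at 0.985 (Pearson, across genes, which are not independent). Hybridization day was tied to region in both genotypes. All hippocampal arrays were on day 1, and 9 of 10 prefrontal Df(16)A/+ arrays and 7 of 10 wild-type ones on day 2. Agreement between the genotypes therefore cannot tell region from day, dissection or scaling that both share. In Df(16)A/+, C1ql2 averaged 10.09 in the hippocampus and 1.86 in the prefrontal cortex, Prox1 9.05 and 3.18, Tnnc1 3.12 and 10.18 and Cckbr 4.72 and 9.85. A test of the difference between genotypes over all 40 arrays called 131 genes (1.17%), 2 of them with a genotype difference of at least 2-fold (0.0179%). With the chip lot as a block it called 1 probe set in place of 208 (0.943%). Among the genes named here it called Gpr161, at 5.60 in wild type and 5.97 in Df(16)A/+, Htr4, at 5.41 and 5.07, and Rspo1, at -2.19 and -1.84, with adjusted p-values of 0.045, 0.045 and 0.039 (limma). In each of these 3 genes a region mean was under 4, so the values are differences of signals and not sizes of change.

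**Figure D5:**
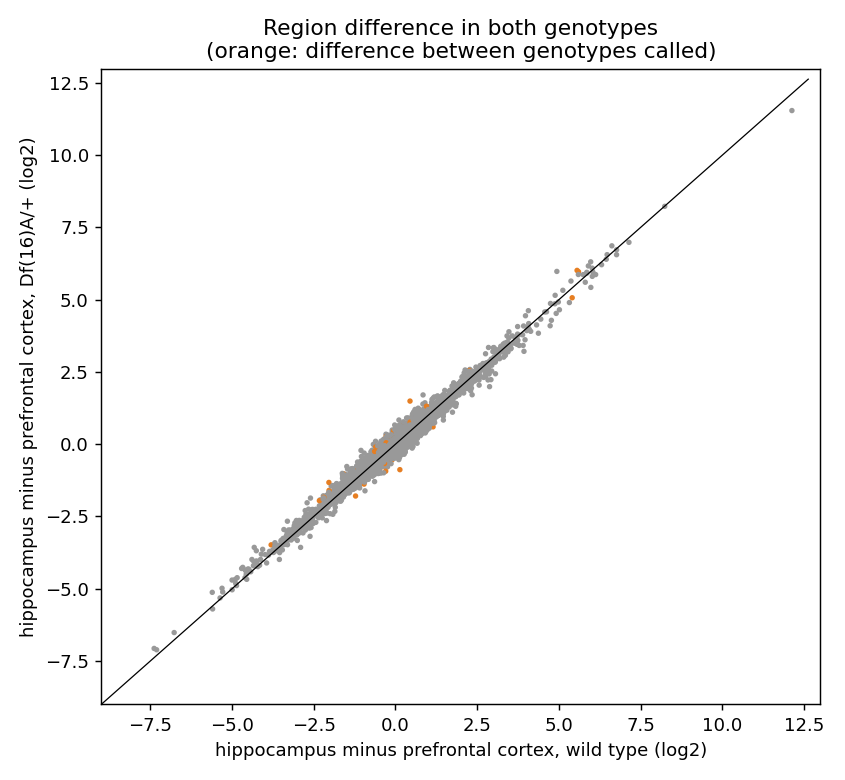
Hippocampus minus prefrontal cortex (log2) in wild type on the horizontal axis and in Df(16)A/+ on the vertical axis for 11172 genes, with the line of equality. Orange points are the 131 genes for which the genotypes differed by the interaction test (limma), 2 of which differ between genotypes by at least 2-fold.

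Technical variables were not balanced over the regions. Hybridization runs were inferred from the recorded day and hour. No hybridization run held wild-type arrays of both regions: hippocampal arrays were in run 1 (1 array) and run 2 (9), prefrontal ones in run 3 (3) and run 4 (7). In wild type alone, run and region cannot be told apart. Over all 40 arrays, where 8 hippocampal and 1 prefrontal Df(16)A/+ array shared run 3, a fit with genotype and run as terms kept direction and call for 181 of 183 named genes, and Slc17a7 and Tmem119 lost the call. The fit within run 3 did so for 176, while Col8a1, Fkbp5, Nr3c1, Olig2, Slc17a7, Tcf7l2 and Tmem119 kept the direction only. Chip lot 1 held 9 hippocampal and 4 prefrontal wild-type arrays, and within it all 183 named genes kept direction and side of the threshold. The beta-actin 3′ minus 5′ difference, a measure of RNA integrity, was 1.36 ± 0.17 in the hippocampus and 1.26 ± 0.079 in the prefrontal cortex (SD, n = 10 each, permutation test, two-sided p = 0.0761). With it as a covariate, all 182 named genes that were called kept their direction and call. Hippocampal replicate 1 correlated least with its group, at 0.992 at most, against at most 0.933 for any pair of arrays across regions.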

How the data were processed

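Total RNA from prefrontal cortex and hippocampus (Trizol, then RNeasy, per the labels' protocols) was biotin-labelled for 40 Affymetrix Mouse430_2 arrays, 10 per genotype and region. The deposited values are log2 signals of 45101 probe sets made with GCRMA, per the submitters' processing notes. Which arrays went into 1 normalization was not given in the sources used here. Chip lot, station and hybridization time were read from the deposited array records. The records give no run: arrays whose recorded hybridization fell in the same hour of the same day were taken as 1 run.

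The 20 wild-type arrays were quantile normalized together. Probe sets above 4 (deposited value) in at least 10 arrays were kept and control probe sets were left out. Each probe set was fitted with limma 3.58.1 (R 4.3.3), with two-sided p-values adjusted by the Benjamini-Hochberg method over all 22060 probe sets. Each of the 11172 genes carried the adjusted p of its probe set, without a further adjustment over genes. A gene was represented by its probe set of highest mean and named only where GEO's platform annotation, updated through RefSeq, gave 1 gene. The labels call the arrays biological replicates, but do not tie them to animals, so the p-values measure the spread between arrays. The number of arrays limits the precision.

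Genes were named by a rule: the 15 largest differences each way among 2-fold genes without overlap, the 4 called members of each list with the largest difference, defining markers of other tissues, and the most opposed paralogs of a list. Of the 242 genes it chose, 167 are named, and 16 more were named after their values were seen, as stated beside them. The comparison, the lists and the rule were chosen with earlier results of these data known. On data simulated for the wild-type contrast, the fit recovered 54% of 50 probe sets changed by 0.25 and 94% of 50 changed by 0.5 (log2). Of its calls over all 22060 simulated probe sets, 5.43% were unchanged probe sets. Only 50 probe sets each were changed by 0.25, 0.5, 1 and 2, whereas 78.4% of genes were called in the data. These rates therefore need not hold for the measured contrast.

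Alternatives covered the scaling, the filter, the choice of probe set, the variance model, technical blocks and subsets, and each array left out in turn. The subset of arrays from hybridization day 1 was added after the data were seen.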

Additional observations from a re-analysis of the deposited data

Results flagged for a closer look

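Among the named genes, a region's 10 arrays were checked for a single high or low array wherever the region mean was at least 4, which gave 293 groups of arrays. An array was singled out when its gap to the nearest other array exceeded Dixon's critical share of the whole range. This held in 46 groups (15.7%), while chance alone gives about 1 in 20. All values are jointly normalized log2 signals. Hippocampal replicate 1 stood apart in Cacng5 at 4.25 (nearest array 5.99), Pou3f2 at 5.49 (nearest array 4.77), Rbp4 at 3.92 (nearest array 5.57) and Egr2 at 6.60 (nearest array 5.92). A further set was Siglech at 3.25 (nearest array 5.18), Esam at 6.79 (nearest array 6.51) and Ccdc153 at 4.00 (nearest array 5.72). In hippocampal replicate 2 this held for Ttr at 12.50 (nearest array 15.17), Kl at 5.52 (nearest array 7.68), Sostdc1 at 5.71 (nearest array 7.93) and Kcnj13 at 5.32 (nearest array 8.30). It also did so in Robo3 at 5.25 (nearest array 4.67) and Tmem119 at 5.62 (nearest array 6.23). For replicate 7 of the hippocampus these were Rnf182 at 9.36 (nearest array 9.57), Sema3a at 5.26 (nearest array 4.87) and Zbtb20 at 12.31 (nearest array 12.52). Hippocampal replicate 10 stood apart in Stard8 at 4.64 (nearest array 4.38), Grm4 at 6.29 (nearest array 5.87) and Tcf7l2 at 7.79 (nearest array 6.79). In hippocampal replicate 5 this held for Cdh7 at 4.74 (nearest array 5.19) and Cntn4 at 7.12 (nearest array 7.38). For replicate 6 of the hippocampus these were Hsd11b1 at 10.15 (nearest array 10.37) and Gjb1 at 5.99 (nearest array 6.38). Hippocampal replicate 8 stood apart in Scn4b at 5.18 (nearest array 5.74) and Rsph1 at 6.40 (nearest array 5.91). In hippocampal replicate 9 this held for Crhr1 at 4.55 (nearest array 4.86) and Agt at 6.43 (nearest array 7.05). Prefrontal replicate 6 stood apart in Fibcd1 at 3.93 (nearest array 4.13), Stard8 at 9.69 (nearest array 9.85), Rnf182 at 5.94 (nearest array 6.20) and Wnt9a at 8.75 (nearest array 8.60). A further set was Cabp1 at 9.47 (nearest array 9.38), Cpne9 at 10.20 (nearest array 10.11) and Efnb3 at 7.52 (nearest array 7.19). In prefrontal replicate 7 this held for Cpne7 at 5.89 (nearest array 6.36), Grin2b at 10.70 (nearest array 11.10) and Rgs4 at 13.15 (nearest array 13.29). For replicate 1 of the prefrontal cortex these were Shisa6 at 4.78 (nearest array 5.04) and Grm4 at 7.02 (nearest array 7.25). Prefrontal replicate 2 stood apart in Rarb at 5.79 (nearest array 5.44) and Plekhg1 at 4.55 (nearest array 4.99). In prefrontal replicate 8 this held for Pde8a at 4.18 (nearest array 4.61) and Enpp6 at 4.45 (nearest array 4.18). For replicate 3 of the prefrontal cortex these were Cplx3 at 4.65 (nearest array 4.80). Prefrontal replicate 9 stood apart in Rgs6 at 6.20 (nearest array 6.03). In prefrontal replicate 10 this held for Hkdc1 at 8.49 (nearest array 8.13).

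The low values of replicate 2 in Ttr, Kl, Sostdc1 and Kcnj13 belong to the choroid plexus markers and a channel that varied with them, and without replicate 2 all named genes kept their direction and call. The same held when hippocampal replicate 1 or prefrontal replicate 6 was left out. Hippocampal replicates 1 and 2, with 7 and 6 such values, also had the highest beta-actin 3′ minus 5′ differences of their group, 1.64 and 1.65 against 1.18 to 1.45 in the other 8 arrays, and the part of RNA integrity in these values was not tested.

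The region difference itself differed between genotypes in 3 named genes. Df(16)A/+ minus wild type was 0.355 for Gpr161 (adjusted p = 0.045), -0.366 for Htr4 (0.045) and 0.372 for Rspo1 (0.039), by limma over 40 arrays (10 per group). With chip lot as a block 1 probe set was called in all, so these differences were not separated from lot. In each of the 3 genes the regional difference had the same direction in both genotypes.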

How the results depend on the processing

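Of the 183 named genes, 170 kept direction and side of the threshold under each of 45 alternatives that measured them. Stricter filters left many unmeasured. With at least 5 arrays of each region above 4, 110 kept both, 1 reversed and the others, weak in a region, were not measured. With a level of 6, 149 kept both and the others were not measured. Mbp reversed, to -0.22 with the values as deposited and -0.16 after centring. Fcgr2b went to 0.017 with probe sets above 4 in at least 5 arrays of each region, which chose another probe set, and 11 genes crossed the threshold in at least 1 alternative without reversing, among them Wfs1, which was called as deposited (-0.76) and after centring (-0.70). As deposited, 2680 probe sets were higher and 17412 lower (964 and 4502 of them 2-fold), and of genes 1185 and 9205 (441 and 2232). After centring these were 2883 and 16732 (1018 and 3945), and of genes 1267 and 8861 (462 and 1944). With no filter 30763 probe sets were called, 17687 higher and 13076 lower, and 7178 genes higher, since more probe sets were tested. With a level of 6 the 2-fold probe sets were 902 and 1211 and the 2-fold higher genes 466, since fewer were tested, and with at least 5 arrays of each region above 4 the 2-fold lower probe sets were 1248. Within station 1, 5824 probe sets and 2936 genes were higher. Within run 3, where 1 prefrontal array carries the contrast, 8840 probe sets were called (4368 and 4472) and 4456 genes (2165 and 2291). The genotype difference called 588 probe sets as deposited and 1 with chip lot as a block, in place of 208, and the cause was not tested. Leaving out each array in turn gave 8627 to 8768 called genes, 723 to 733 of them 2-fold higher and 834 to 862 2-fold lower. Same-numbered arrays of the regions correlated at -0.271 to 0.158 in their deviations, 3 of 10 pairs over 0.1. In 1 of 10 numbers the best correlation was with its own partner. The values gave no sign of pairing by number, but they cannot tell whether equal numbers mark the same mouse. With the replicate number as a block 8620 genes were called (4372 higher, 4248 lower) and 16910 probe sets, and no named gene changed its call. Weak signals limit the folds, since values under 4 lie in the range of probe sets that failed the filter.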

Other observations

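Of 5071 genes with at least 2 tested probe sets, 814 had probe sets called in opposite directions (limma, adjusted p under 0.05), and 8 had probe sets at least 2-fold apart in both directions. The genes described here were chosen after their values were seen. For Wnt7a, a secreted Wnt ligand, 1 probe set averaged 4.55 in the hippocampus and 2.35 in the prefrontal cortex, and another 3.67 and 4.88. For Ankrd10, an ankyrin repeat protein, the means were 7.30 and 5.46 on 1 probe set and 4.00 and 5.20 on the other. For Tpm3, a tropomyosin, they were 6.74 and 8.18 on 1 and 5.71 and 4.42 on the other. In these 3 genes the regions did not overlap on either probe set, and each probe set kept its direction in Df(16)A/+, at 2.17 and -1.34 for Wnt7a, 1.76 and -1.03 for Ankrd10, and -1.23 and 1.31 for Tpm3. Which transcripts these probe sets measure was not tested. The other 5 genes of this kind were Mthfd2, Xiap, Spred2, Pdik1l and Rc3h2.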
